A study of Zea mays with 15 samples.

Results

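Sites with a called peak of 4 or 5 of the 7 listed maize clade B AUXIN RESPONSE FACTORs (ARFs) were examined. None of the 7 listed clade A ARFs had a peak there, and the question was which clade B ARFs are missing. Other members of the family had no peak list here and were not covered. AUXIN RESPONSE FACTORs are plant transcription factors that pass the signal of the hormone auxin to gene expression. They recognise DNA with a B3 domain, around a core sequence TGTC, and they can pair up on neighbouring cores through a dimerization surface beside that domain. In reporter assays clade A members mostly act as activators and clade B members as repressors, and how far clade B answers to the auxin-sensitive Aux/IAA inhibitors is less clear than for clade A.

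The data came from DAP-seq, which incubates a purified, tagged transcription factor with sheared and adapter-ligated genomic DNA and sequences the fragments that stay bound. All 14 ARF libraries used genomic DNA of the inbred B73 from young, field-grown ears and an ARF fused to GST and purified from E. coli, with 1 library per ARF. The series also held a GST-HALO negative control made in wheat germ extract, so this protein differed from the ARFs in its source as well as in its sequence. The DNA was naked, so chromatin played no part. The clade B ARFs were ARF25 (GRMZM2G116557), ARF10 (GRMZM2G338259), ARF7 (GRMZM2G475263), ARF14 (GRMZM2G137413), ARF36 (GRMZM2G702026), ARF13 (GRMZM2G378580) and ARF39 (GRMZM2G017187), named here from the longest list to the shortest. The study treats ARF7 as a sub-clade of its own, puts ARF14, ARF36 and ARF39 together, and names an ARF25 sub-clade. The clade A lists were those of ARF34, ARF16, ARF27, ARF4, ARF29, ARF35 and ARF18. Of these, the ARF34 and ARF27 libraries had been reduced to a set number of mapped reads before peak calling, which was not stated for any clade B library.

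Peaks of all 14 lists that overlapped by at least 1 bp were merged into 124379 sites. A site was taken when 4 or 5 clade B lists and none of the other 7 had a peak in it. There were 5038 such sites, 2709 with 4 lists and 2329 with 5, which is 4.05% of all merged sites and 11.9% of the 42444 sites that held clade B peaks only. Just outside the rule lay 5457 clade B-only sites with 3 lists and 2311 with 6. A further 941 sites had 4 or 5 clade B lists and a peak of exactly 1 of the other lists, which was ARF34, the longest list, in 666 of them. These neighbours show how sharp the rule is, since a single peak moves a site across it. Because each ARF had 1 library, no test between ARFs was possible. Intervals in parentheses are 95% Wilson intervals for shares and 95% Newcombe intervals for differences. They cover counting over sites only, and say nothing of how a second library would vary. Peak lists without read totals leave the depth behind each list unknown.

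The first question was which lists drop out. The peaks named in the rule chose these sites, so the shares that follow describe the selection and are not evidence for it. ARF25 was present at 4649 of the 5038 sites (92.3%), against 29.7% of all merged sites. ARF14 was present at 84.8% (21.7% of all merged sites) and ARF10 at 80.8% (26.3%). ARF36 was present at 73.7% (17.1%). ARF13 was present at 53.2% (14.6%) and ARF7 at 48.5% (22.5%). ARF39 was found at 659 sites, or 13.1% (8.07%). With the lists as deposited, ARF25, ARF14 and ARF10 were thus the lists usually left, and ARF39, ARF7 and ARF13 those most often gone.

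The order was much the same at either number of lists. At the 2709 sites with 4 lists, ARF39 was absent from 89.0% (87.8 to 90.1%), ARF13 from 54.8% (52.9 to 56.7%) and ARF7 from 52.8% (50.9 to 54.7%). The intervals of ARF13 and ARF7 overlapped, so these lists were not set apart. ARF36 was absent from 38.6% of these sites, ARF10 from 28.4%, ARF14 from 23.7% and ARF25 from 12.7%. At the 2329 sites with 5 lists, ARF39 was absent from 84.5% (83.0 to 85.9%), ARF7 from 50.1% (48.04 to 52.1%) and ARF13 from 37.6% (35.6 to 39.6%). Here ARF7 clearly preceded ARF13. ARF36 was absent from 12.1%, ARF10 from 8.46%, ARF14 from 5.45% and ARF25 from 1.89%. At the 2311 sites with 6 lists, which lack a single list, that list was ARF39 in 76.9%, ARF7 in 15.1% and ARF13 in 5.67%. Read from 6 lists downward, ARF39 was therefore the first to go, ARF7 the next and ARF13 after it.

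Part of this order followed the length of the lists. ARF39 had by far the shortest clade B list with 10174 peaks, followed by ARF13 with 18340, ARF36 with 21647, ARF14 with 28072, ARF7 with 29361, ARF10 with 33529 and ARF25 with 38272. ARF7 and ARF10 stood outside this series. Both had longer lists than ARF14 and were absent more often, ARF10 by a little and ARF7 by far. When all 14 lists were cut to the 7520 peaks of highest signal, 1644 sites met the rule and the order changed. ARF7 was then absent from 64.7% of the sites with 4 lists and 73.2% of those with 5, and ARF39 from 44.9% and 45.7%. ARF13 was absent from 38.9% and 14.9%. ARF10 (44.7% and 19.7%) and ARF14 (44.55% and 23.3%) were now absent more often than ARF13, and at 4 lists about as often as ARF39. ARF25 was absent from 37.8% and 13.5%. ARF36, in the middle of the order with the lists as deposited, became the list most often present, being absent from 24.5% and 9.71%. ARF39 headed the order with the lists as deposited, whereas ARF7 headed it once their lengths were equal, and the bar plot of absent lists shows both.

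**Figure D1:**
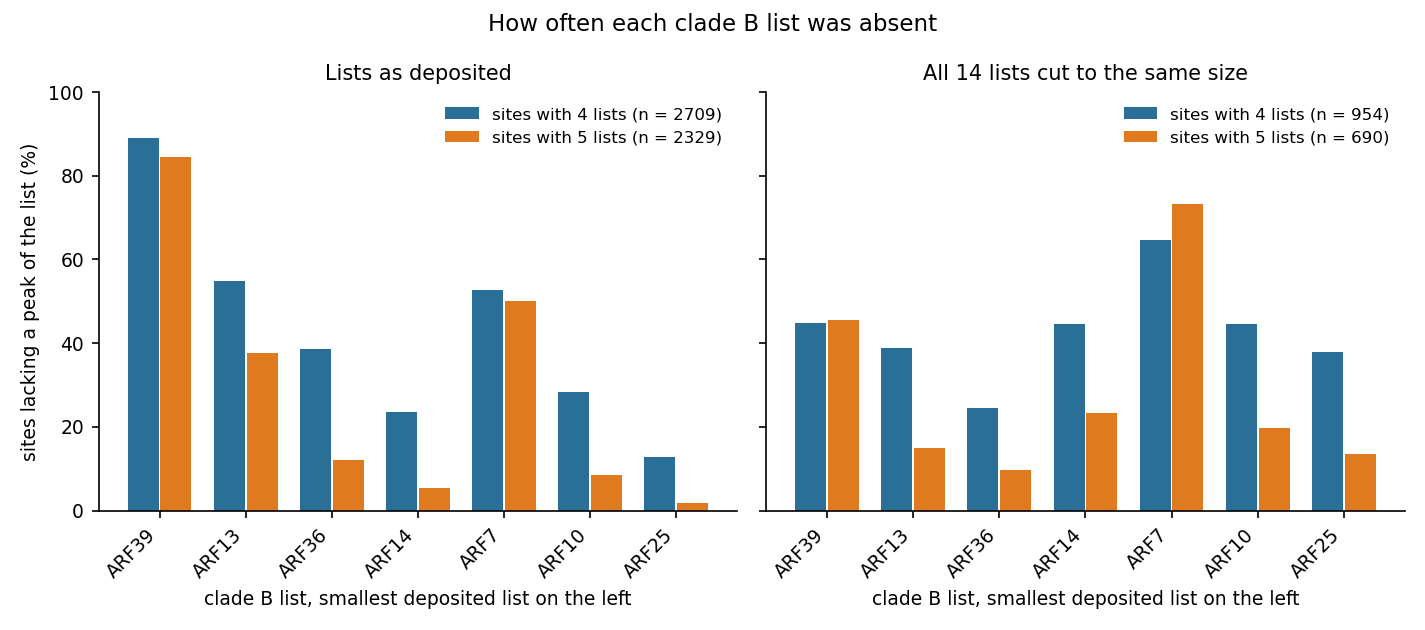
Share of sites (%) that lacked a peak of each clade B list, at sites with 4 lists (blue) and 5 lists (orange), with the lists as deposited (left) and with all 14 lists cut to the same size (right); lists run from the shortest deposited list to the longest. ARF39 was absent from 89.0% and 84.5% with the deposited lists, while ARF7 was absent most often at equal size, from 64.7% and 73.2%.

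A few combinations of lists held most of the sites. Lists of unequal length and a fixed number of lists per site make such unevenness likely, and no count for independent absence was computed. Of 21 possible sets of 5 lists, 19 occurred, 7 of them at fewer than 10 sites. The set of ARF10, ARF13, ARF14, ARF25 and ARF36, which lacks ARF7 and ARF39, was found at 987 of 2329 sites, a share of 42.4% (40.4 to 44.4%). The set that lacks ARF13 and ARF39 accounted for 608 (26.1%), and the set that lacks ARF36 and ARF39 for 232 (9.96%). These 3 sets together covered 78.5% of the sites with 5 lists. Next came 141 sites that kept ARF39 and ARF7 but lacked both ARF10 and ARF13 (6.05%).

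At the sites with 4 lists, 29 of 35 possible sets occurred, 10 of them at fewer than 10 sites, and the counts were spread more evenly. ARF10, ARF13, ARF14 and ARF25 held 542 of the 2709 sites (20.01%, 18.5 to 21.6%). ARF7, ARF14, ARF25 and ARF36 held 490 (18.1%), and ARF10, ARF13, ARF25 and ARF36 held 336 (12.4%). The set that a strict order of ARF39, ARF7 and ARF13 would leave, ARF10, ARF14, ARF25 and ARF36, came after these with 330 sites (12.2%). A single order of loss, the same at every site, was thus not what the sites with 4 lists showed.

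**Figure D2:**
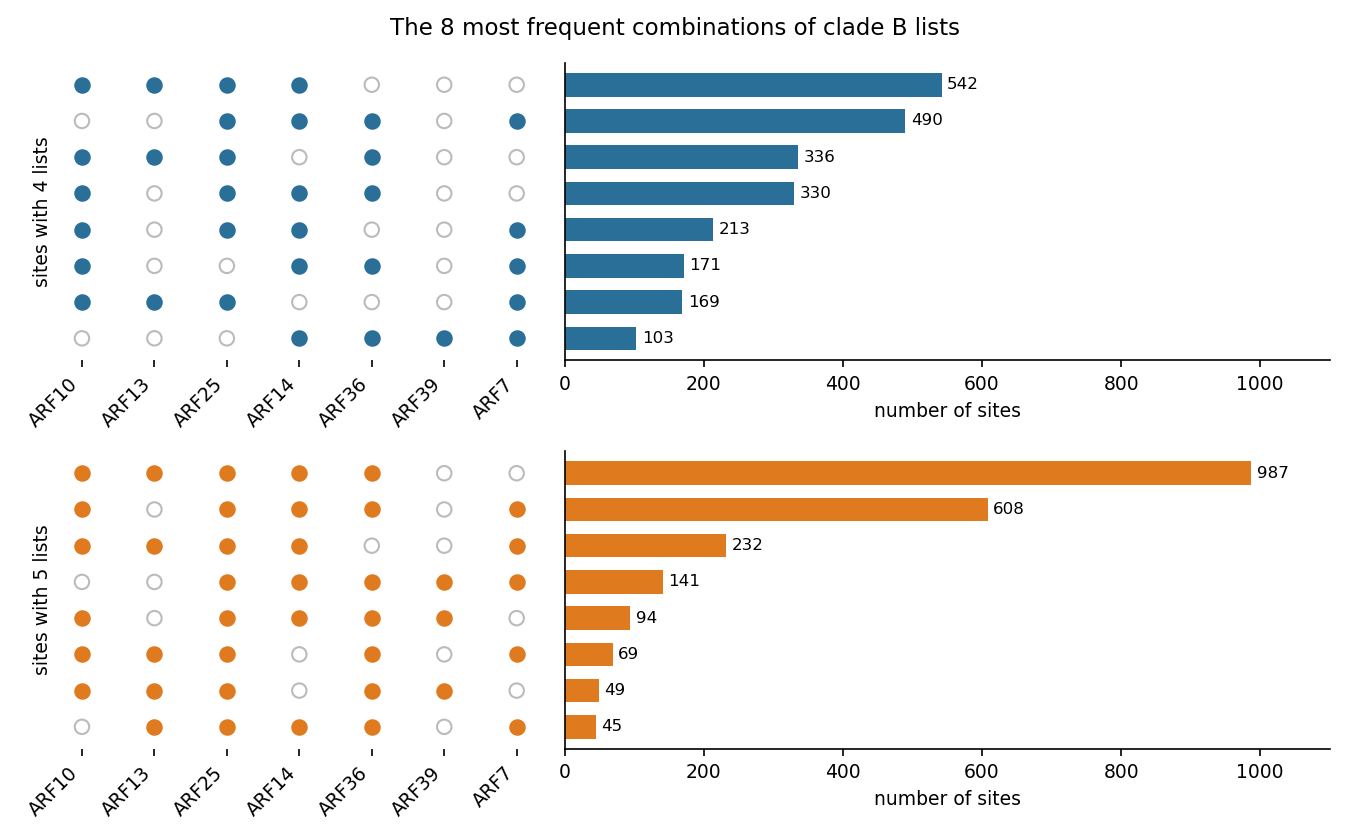
The 8 most frequent combinations of clade B lists at sites with 4 lists (top, blue) and 5 lists (bottom, orange). Filled circles mark lists with a peak, open circles lists without, and bars give the number of sites; the set without ARF7 and ARF39 leads at 5 lists with 987 sites, and 2 sets that differ in ARF7, ARF10, ARF13 and ARF36 lead at 4 lists with 542 and 490 sites.

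Where ARF7 was present, ARF13 was often absent. At sites with 5 lists, ARF13 was absent from 67.2% of those that held ARF7 and from 8.06% of those that lacked it. At sites with 4 lists the shares were 81.6% and 30.8%. ARF10 followed ARF13 in this, being absent from 50.7% of the 4-list sites that held ARF7 and from 8.53% of those that lacked it. A fixed number of lists favours such an exchange, since the absence of any list leaves fewer absences for the rest. The other lists varied. ARF39 was absent from 84.4% of the 5-list sites that held ARF7 and 84.7% of those that lacked it, and from 90.3% and 87.8% of the 4-list sites. At sites with 4 lists ARF14 was absent less often where ARF7 was present (18.3%) than where it was not (28.5%), as was ARF36 (34.2% and 42.5%).

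Between ARF10 and ARF13 the losses were nested. At sites with 4 lists, ARF13 was absent while ARF10 was present in 29.3% (27.6 to 31.05%), and the opposite was seen in 2.92% (2.35 to 3.62%). Both were absent in 25.5%. At sites with 5 lists the shares were 31.5% and 2.40%, with both absent in 6.05%. ARF10 was rarely missing where ARF13 was present, which is also the order of their list lengths. With all 14 lists at equal size the order turned round, with ARF10 absent from 44.7% and 19.7% of the sites with 4 and 5 lists and ARF13 from 38.9% and 14.9%. All of ARF10, ARF13 and ARF25 were kept without ARF7 at 34.3% of the sites with 4 lists and 45.7% of those with 5. All of ARF14, ARF36 and ARF39 were kept without ARF7 at 3.25% and 4.34%. This set needs ARF39, the shortest list, which was itself absent from 89.0% and 84.5% of the sites. The shares of the 2 sets are therefore not a comparison of sub-clades.

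Where ARF39 was present, the other absences were different ones. ARF10 was absent from 71.1% of the 4-list sites that held ARF39 and from 23.1% of those that lacked it. At sites with 5 lists these shares were 42.1% and 2.29%. ARF13 was absent from 73.96% of the 5-list sites that held ARF39 and from 30.9% of those that lacked it. ARF25 was absent from 37.9% of the 4-list sites with ARF39 and 9.62% of those without it, and ARF14 from 16.1% and 3.51% of the 5-list sites. ARF7 was absent from 58.4% and 52.1% of the 4-list sites and from 49.6% and 50.2% of the 5-list sites, with overlapping intervals. ARF36 was absent from 28.2% and 39.9% of the 4-list sites and from 13.6% and 11.8% of the 5-list sites. Since a site that holds ARF39 must lack others to stay at 4 or 5 lists, the rule itself favours higher absences of the other lists there, and ARF36 at 4 lists went the other way. ARF7 and ARF39 were both present at 4.58% of the sites with 4 lists and 7.82% of those with 5.

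Signal is the read depth that the peak caller assigned to a peak. It is not scaled between libraries, so each peak was ranked within its own list from 0 (weakest) to 100 (strongest), and where a list had several peaks at a site the strongest was used. These ranks come from the measurement that chose the sites and are given as a description. ARF25 peaks had a median rank of 50.7 at sites with 4 lists, 63.6 with 5, 78.4 with 6 and 90.6 with 7. ARF10 peaks had 45.2, 55.9, 77.1 and 89.7, and ARF14 peaks had 40.7, 49.5, 64.6 and 84.6. ARF13 peaks had 35.1, 49.1, 65.7 and 83.2, and ARF36 peaks had 34.3, 39.4, 57.1 and 82.3. The sites with 4 or 5 lists were thus middling peaks in most lists, well below the ranks reached where 7 lists were present.

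ARF39 and ARF7 stood apart in different ways, ARF39 by its low level and ARF7 by its trend. ARF39 peaks had the lowest median rank of the 7 lists at each number of lists, with 18.9 at sites with 4 lists, 23.1 with 5, 29.5 with 6 and 50.6 with 7. Of the ARF39 peaks, 85.6% at sites with 4 lists and 77.8% at sites with 5 had a −log10 q under 10, close to the calling limit of 5. ARF36 was close to this, with 79.5% and 73.8%, and ARF13 had 71.98% and 52.3%. Single ARF39 peaks could still be strong, as the leading sites show. ARF7 peaks had a median rank of 55.2 at sites with 4 lists, 59.4 with 5, 52.3 with 6 and 72.6 with 7, so the rank did not climb with each added list. ARF7 peaks reached a rank of at least 90 at 291 of 2442 sites (11.9%), whereas ARF10, ARF14 and ARF25 did so at 1.20%, 2.08% and 1.25% of theirs. By the way ranks are made, about 10% of all peaks of any list reach 90. The ARF7 share was near that, and the shares of ARF10, ARF14 and ARF25 were well below it. Among the lists present at a site, ARF7 had the highest rank in 43.9% of the sites that held it and ARF25 in 37.8%. ARF39 had the lowest rank in 54.8% of its sites.

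**Figure D3:**
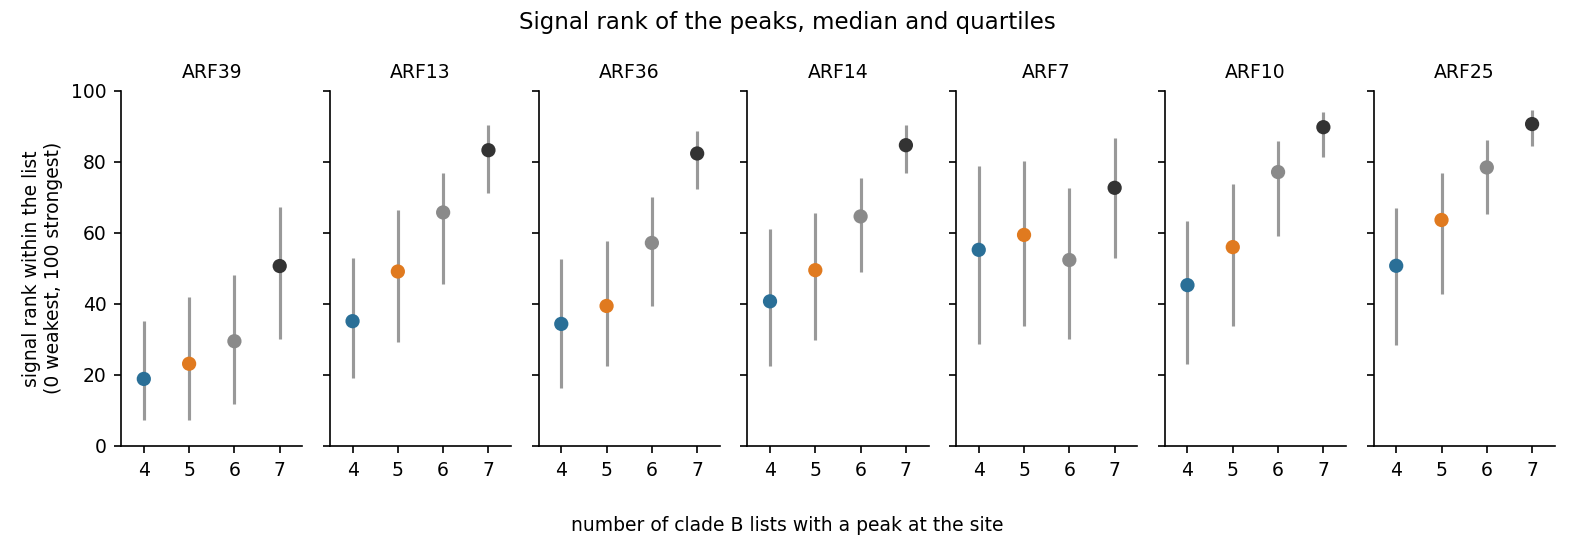
Signal rank within each list (0 weakest, 100 strongest) against the number of clade B lists at the site, with points for the median and lines for the quartiles. Most lists climb from 4 to 7 lists, ARF25 for example from 50.7 to 90.6. ARF39 climbs too, but at lower ranks (18.9 to 29.5 up to 6 lists), while ARF7 does not climb between 5 and 6 lists (59.4 and 52.3).

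The ranks also tilted with the list that was lost. Where ARF13 was present at sites with 5 lists, the median rank was high in ARF25 (72.1) and ARF10 (66.8), and low in ARF7 (42.5) and ARF14 (39.6). Where ARF13 was absent, it was high in ARF7 (66.01) and ARF14 (63.8), and lower in ARF25 (44.9) and ARF10 (36.2). ARF36 changed in the direction of ARF14, with 32.9 where ARF13 was present and 49.4 where it was absent. The tilt was also seen at sites with 4 lists, where ARF14 had a median rank of 22.4 with ARF13 and 50.99 without it. Across the sites, the ranks of ARF10 and ARF13 were correlated with a Spearman rho of 0.81 (2543 sites) and those of ARF14 and ARF36 with 0.51 (3169 sites). The lowest values were −0.15 for ARF7 with ARF25 (2080 sites), −0.12 for ARF7 with ARF10 (1603 sites), −0.08 for ARF7 with ARF13 (617 sites) and −0.07 for ARF14 with ARF25 (3892 sites). ARF7 with ARF14 had 0.38 (2130 sites). These correlations are over sites, not replicates. They leave out sites where either list was absent, and they were computed within a group chosen on the same peaks. Within these sites, the rank of ARF7 ran more with that of ARF14 than with that of ARF10, ARF13 or ARF25.

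Of the 3 leading sites by mean rank at each number of lists, all 3 with 5 lists and 1 with 4 lists had kept ARF39 and lacked ARF10 and ARF13. With 5 lists, the top site (mean rank 99.5) spanned 215811666 to 215811875 of chromosome 2 in B73 RefGen version 3, the build of every position given here. Its signal was 868.9 reads in ARF14, 496 in ARF39, 420 in ARF25, 253 in ARF36 and 173 in ARF7, all at a rank of at least 98.79. The next site (mean rank 93.1) was on chromosome 5, from 201813037 to 201813280, and the third (87.2) on chromosome 2, from 237405220 to 237405440. Among sites with 4 lists, a site at 203951670 to 203951995 of chromosome 1 came first (87.03), where ARF7, ARF14, ARF36 and ARF39 were present. The other 2 of the leading 3, on chromosome 1 (10370602 to 10370824) and chromosome 4 (149375251 to 149375507), held ARF10, ARF14, ARF25 and ARF36 and lacked ARF7, ARF13 and ARF39. At these leading sites, lists were absent although the mean rank of those present was at least 82.65.

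Typical strong sites of the frequent combinations were chosen by the highest mean rank. For the set without ARF7 and ARF39 this was a site on chromosome 10, from 148703264 to 148703469, with ranks from 79.9 in ARF14 to 94.2 in ARF10 and summits within 5 bp of each other. For the set without ARF13 and ARF39 it was on chromosome 2, from 85296710 to 85296943, where ARF7 led with a rank of 97.2 and ARF10 was last with 72.4. For the set without ARF36 and ARF39 it was on chromosome 3, from 24677550 to 24677765. With 4 lists the chosen sites were on chromosome 3 (130126217 to 130126534, without ARF7, ARF36 and ARF39), chromosome 4 (50677603 to 50677844, without ARF10, ARF13 and ARF39) and chromosome 7 (47588068 to 47588296, without ARF7, ARF14 and ARF39). Their mean ranks were between 81.7 and 81.9. Genes and sequence at these positions were not analysed here, because the genome build of the files was not at hand.

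The sites were compact. Their median width was 226 bp against 217 bp where all 7 lists were present, with single peaks being 201 bp wide, and the widest reached 785 bp. In 91.1% of them each list had a single peak, and in 93.5% all summits lay within 100 bp of each other. Merging joins only peaks that overlap, so close summits are in part set by the rule. The share within 100 bp was similar at sites with 6 lists (91.9%) and 7 lists (95.6%). Several peaks of a list at a site were most frequent for ARF7 (5.36% of its sites) and ARF25 (4.52%).

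The exact position of the summits was a measure that the rule had not used. Summits are placed by the peak caller from enriched k-mers of each list, so an exact distance between lists reflects that placement as well as binding. At sites with 1 peak in each of the 7 lists, the summits took up a common spacing. Counted from the ARF10 summit toward that of ARF7, the most frequent position was 0 bp for ARF25, 1 bp for ARF13, 4 bp for ARF36, 5 bp for ARF14 and ARF39, and 9 bp for ARF7. ARF10, ARF13 and ARF25 thus lay at the near side, ARF36, ARF14 and ARF39 in the middle and ARF7 at the far side. It was taken from sites outside the group examined here and then looked for within it.

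All summits fitted this spacing within 1 bp, on either strand, in 829 of the 4588 sites with 4 or 5 lists and 1 peak per list (18.1%, 17.0 to 19.2%), against 21.4% of all sites with 4 or more clade B lists, those with clade A peaks included. With 4 lists the share was 15.7% (14.3 to 17.2%), with 5 it was 20.99% (19.3 to 22.8%), with 6 it was 31.1% (29.1 to 33.2%) and with 7 it was 50.6% (48.3 to 52.8%). The share thus grew with the number of lists, although more summits had to fit at once. The sites with 7 lists defined the spacing, so their own share is fitted to it, and the sites with 6 lists are the independent comparison. Pairs of lists differed widely. ARF10 and ARF13 were 1 bp apart in 74.6% of 2299 sites with 4 or 5 lists and in 72.2% of 1792 sites with 6. ARF13 and ARF36 were 3 bp apart in 72.5% and 70.1%. By contrast, ARF14 and ARF36 were 1 bp apart in 20.9% and 47.5%, and ARF7 and ARF14 were 4 bp apart in 5.99% and 32.2%. ARF13 mostly kept its distance to ARF10, ARF25 and ARF36. At sites with 4 or 5 lists, ARF7 mostly did not keep its distance to any list (5.99% to 16.7%). The same held for ARF39 (10.3% to 20.3%) and ARF14 (5.99% to 30.2%).

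To compare sites on the same summits, ARF10, ARF14, ARF25 and ARF36 were taken wherever all 4 were present, and the sites were divided by which of ARF7, ARF13 and ARF39 was present too. With ARF13 as the only further list the 4 summits fitted the spacing in 41.6% of 909 sites (38.4 to 44.8%). With ARF7 the share was 6.16% of 536 (4.42 to 8.52%), with ARF39 it was 7.78% of 90 (3.82 to 15.2%) and with none of these it was 7.89% of 317 (5.40 to 11.4%). Over the sites with 4 or 5 lists, the share was 41.6% where ARF13 was present and 6.89% where it was absent, a difference of 34.7 points (31.05 to 38.2). The difference grew to 64.6 points (46.95 to 74.2) with all 14 lists at equal size and 58.4 points (53.3 to 62.7) when peaks under a −log10 q of 10 were left out.

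Single combinations showed how far apart the sites were on this measure. For the set of ARF10, ARF13, ARF25 and ARF36, all 4 summits fitted in 64.7% of 320 sites with 4 lists and in 63.9% of the sites with 6 lists that held these. For the set of ARF7, ARF14, ARF25 and ARF36, they fitted in 0.436% of 459 sites with 4 lists and 30.5% with 6. The set of ARF7, ARF10, ARF14, ARF25 and ARF36 fitted in 0.746% of 536 sites with 5 lists and 30.8% with 6. The frequent sets with ARF7 and without ARF13 thus rarely showed the common spacing. At the 3015 sites with 4 or 5 clade B lists and also a clade A peak, 5.41% fitted.

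The same division was seen outside the group. Sites with 6 lists fitted in 5.41% of 111 when ARF13 was the absent list, in 41.6% of 320 when ARF7 was absent and in 50.03% of 1451 when ARF39 was absent. With all 7 lists, which defined the spacing, the share was 69.1% of 1857. The spacing of the 4 lists thus went with the presence of ARF13 at 5 and at 6 lists, the numbers at which sites with and without it can be compared, while adding ARF7 or ARF39 without ARF13 left it between 5.41% and 7.78%. Signal moved with ARF13 as well. The median ARF10 rank was 68.3 in the 5-list sites with ARF13 and 36.2 in those with ARF7. Among sites where ARF10 had a rank of at least 50, the spacing was found in 47.6% of 670 with ARF13 and 10% of 270 without it, a difference of 37.6 points (32.01 to 42.5). At lower ARF10 ranks it was found in 24.7% of 239 and 5.65% of 673, a difference of 19.04 points (13.6 to 25.1).

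**Figure D4:**
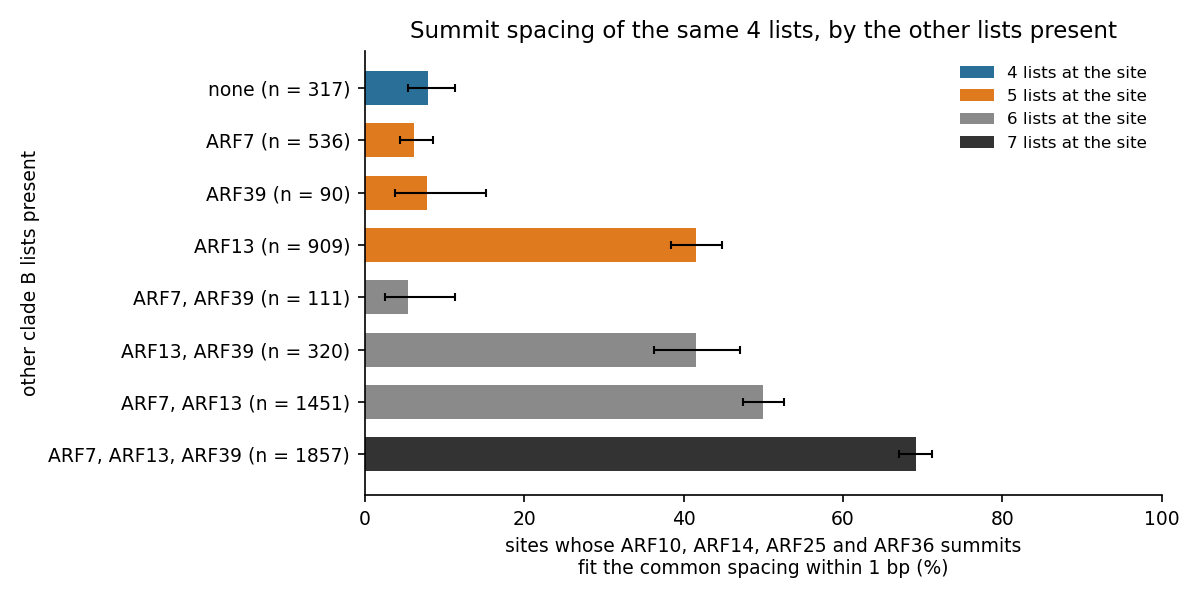
Share of sites (%) at which the ARF10, ARF14, ARF25 and ARF36 summits fitted the common spacing within 1 bp, by the other clade B lists present, with 95% Wilson intervals; colours give the number of lists at the site. The 4 rows without ARF13 lie between 5.41% and 7.89%, and the 4 rows with ARF13 between 41.6% and 69.1%.

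Position along the chromosomes had not entered the rule either. It was measured as the share of site centres in the outer 20%, meaning the 10% next to either chromosome end, where maize genes are denser. The share was 21.5% (20.4 to 22.6%) for the sites with 4 or 5 lists, against 17.3% with 6, 17.5% with 7 and 23.9% of all merged sites. It exceeded the share with 7 lists by 3.99 points (2.04 to 5.88), and differed from that of all other merged sites by −2.54 points (−3.68 to −1.36). Against the other sites with clade B peaks only (21.65%) the difference was −0.197 points (−1.39 to 1.03), within counting error. In their position the sites thus resembled clade B-only sites in general more than those with 6 or 7 lists. Sites with 4 lists (21.5%) and with 5 (21.4%) had nearly the same share.

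Among the 7 lists, the largest contrast in position was by ARF39. Of 659 sites that held ARF39, 29.6% were centred there (26.2 to 33.2%), against 20.2% of the sites that lacked it (19.1 to 21.5%, 4379 sites), a difference of 9.36 points (5.79 to 13.1). At sites with 5 lists the difference was 12.4 points (7.46 to 17.7) and at sites with 4 it was 5.98 points (0.983 to 11.5). It was 7.91 points (1.61 to 15.02) at sites with 3 lists and 4.77 points (1.07 to 8.77) at sites with 6. Over all chromosomes together, the contrast lay at a single end. In the 10% of highest coordinates the shares were 19.7% with ARF39 and 10.53% without it, a difference of 9.20 points (6.19 to 12.5), and in the 10% of lowest coordinates they were 9.86% and 9.71%, a difference of 0.158 points (−2.09 to 2.81). It leaned on chromosomes 2 and 5, where 54 of 126 and 27 of 96 sites with ARF39 lay at the high end. These were 42.9% and 28.1%, against 11.95% and 10.2% of the sites without it. On chromosomes 3 and 10 the high-end share was lower with ARF39 (5.17% and 5.71%) than without it (10.45% and 11.7%). On the other chromosomes it was 10.99% to 19.6% with ARF39 and 8.72% to 11.1% without it. Without chromosome 2 the difference in outer share was 5.29 points (1.55 to 9.34), and without chromosome 5 it was 8.1 points (4.31 to 12.15). Leaving out both was not tried. Presence of ARF7 went the other way, with 20.02% against 22.8% where it was absent, a difference of −2.78 points (−5.04 to −0.512), as did that of ARF10 with −3.65 points (−6.71 to −0.752). For these lists the ends and chromosomes were not taken apart. For ARF13, ARF14, ARF25 and ARF36 the interval of the difference included 0. The contrasts for 7 lists were examined side by side, and their intervals are not adjusted for that number.

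**Figure D5:**
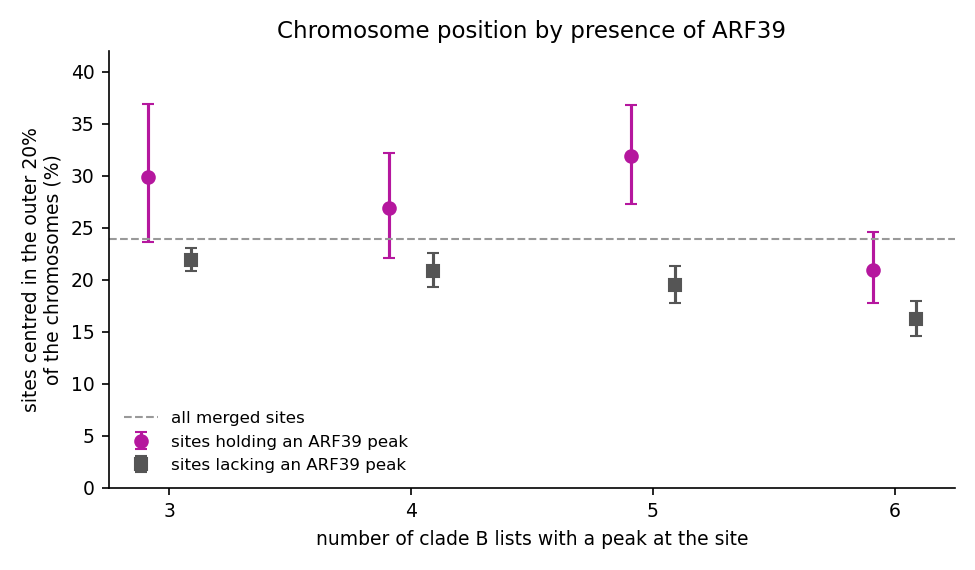
Share of sites (%) centred in the outer 20% of the chromosomes, for sites that held (circles) or lacked (squares) an ARF39 peak, by the number of clade B lists at the site, with 95% Wilson intervals; the dashed line is the 23.9% of all merged sites. Sites with ARF39 lie above those without it at 3, 4, 5 and 6 lists, most clearly at 5 (31.9% and 19.5%). The contrast leans on the high-coordinate ends of chromosomes 2 and 5.

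On part of chromosome 2, several lists had fewer peaks than on the rest of it. Windows of 2 Mb were scanned for places where ARF10 and ARF13 had under 70% of their usual number of peaks relative to the other 5 clade B lists, a scan made after the pattern had been seen. There were 55 such windows, on chromosome 2 and on others. The longest run, of 4 windows, was at 212 to 220 Mb of chromosome 2. Runs of 3 lay on chromosome 4 (88 to 94 Mb) and chromosome 5 (100 to 106 Mb). Runs of 2 lay on chromosome 2 (222 to 226 Mb) and on chromosomes 1, 3, 4 and 9. In the longest run, peaks per Mb were 60.4% of those on the rest of the chromosome for ARF10 and 46.8% for ARF13, and between 45.7% and 95.5% for the 7 clade A lists. They were 162% for ARF39, 137% for ARF25, 134.9% for ARF36, 130.4% for ARF7 and 129% for ARF14. ARF10, ARF13 and the clade A lists were thus below their level on the rest of the chromosome, though ARF27 only slightly (95.5%). The other 5 clade B lists were above theirs. Of the 54 sites in the run, 66.7% held ARF39 and 83.3% lacked both ARF10 and ARF13, against 12.5% and 15.8% of the 4984 sites elsewhere. The scan chose the run for few ARF10 and ARF13 peaks relative to the other 5 clade B lists. The contrast between these 2 lists and those 5, and the absences of ARF10 and ARF13, therefore describe that choice. The top site with 5 lists lies in it. Whether the DNA behind the libraries differed there was not tested. Without the run, the difference in position by ARF39 was 6.97 points (3.42 to 10.8), and ARF10 was absent from 38.2% of the 5-list sites with ARF39 and 2.29% of those without it.

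The sites were spread over all 10 chromosomes, with 22.7 sites per 10 Mb on chromosome 3 at the low end and 27.5 on chromosome 2 at the high end. Neighbours were far apart, with a median gap of 281 kb, and 248 of the sites (4.92%) lay within 10 kb of another. Of the 12785 absences, 178 (1.39%, 1.20 to 1.61%) had a peak of the absent list within 1 kb of the site. The share was 4.37% for ARF25, 3.00% for ARF10, 1.85% for ARF7 and 0.525% for ARF39, an order in which longer lists tended to have more. An absent list was therefore rarely represented by a separate peak next door. No such share was computed for other sites, so whether this is particular to the group is not known.

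Clade A peaks were excluded from the sites themselves but not from their surroundings. A peak of any of the 7 other lists lay within 10 kb of 51.9% of the sites (50.5 to 53.3%), against 50.6% of those with 6 lists, 48.7% of those with 7 and 52.3% of all clade B-only sites. The difference from the sites with 7 lists was 3.17 points (0.701 to 5.63), and that from the sites with 6 was 1.32 points (−1.14 to 3.78), within counting error. Within 1 kb the share was 9.37%, against 5.27% of the sites with 7 lists. Sites that held ARF39 had such a neighbour within 10 kb in 55.5% of cases, against 51.4% of those that lacked it, a difference of 4.18 points (0.0883 to 8.21). The surroundings of the group were thus close to those of clade B-only sites in general.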

How the data were processed

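Reads were trimmed (trimmomatic) and aligned to B73 RefGen version 3 with bowtie2 2.2.8 by the authors, who kept mapping qualities above 30, which thins repeated sequence, and called peaks for each ARF library with GEM 2.5 at a false discovery limit of 1e-05, using GST-HALO as background and k-mers of 6 to 20 bases. The signal in the deposited lists is a read depth from GEM, unscaled between libraries. Deposited p-values and q-values are −log10 values with a ceiling of 999, and the deposited display score was not used. Peaks were joined into sites with numpy 2.4.6 and pandas 2.3.3 in Python 3.11.15, and bedtools 2.31.1 gave the same number of sites. The scripts were tested on simulated data. Clades follow the study, since the labels do not give them, and the set of ARF10, ARF13 and ARF25 is a grouping made here. The sites and measures were chosen with earlier results of these data known, and the summit and ARF39 position measures after the data were seen. Named sites were the 3 of highest mean rank at each number of lists and the highest of each of the 3 most frequent sets. Motif and gene comparisons were planned but not run, because no genome of the files' build was used. Fragments were amplified without molecular identifiers. Alternatives were merging by at least 100 bp, leaving out peaks under a −log10 q of 10, equal list sizes, leaving out ARF34, 1 peak per list, other windows, the outer 40%, leaving out chromosome 2 or its run of thinned lists, and other spacing tolerances.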

Additional observations from a re-analysis of the deposited data

How the results depend on the processing

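Read depth per list was not known, so a list's absence from a site cannot be told apart from a list too shallow to show it. No paired analysis was possible because each ARF had 1 library. Merging by at least 100 bp moved none of the values given here beyond their intervals, nor did the median signal rank move by more than the spread of the ranks under any of the settings tried. Without peaks under a −log10 q of 10 there were 2969 sites, ARF7 was absent from 68.8% at 5 lists and 66.2% at 4, ARF39 from 86.95% at 5, the set without ARF7 and ARF39 held 62.9%, the leading set at 4 lists held 43.0%, the outer share was 19.7% and the spacing difference by ARF13 was 58.4 points. With all 14 lists at equal size there were 1644 sites, ARF7 was absent from 73.2% and 64.7%, ARF39 from 45.7% and 44.9%, the same sets held 35.2% and 6.71%, and the spacing difference was 64.6 points. With only the clade B lists cut to 10174 peaks there were 1566 sites, ARF7 was absent from 75.5% and 66.9%, ARF39 from 62.0% and 60.0%, these sets held 49.2% and 12.7%, the outer share was 19.6% and the spacing difference was 57.7 points. ARF10, ARF13, ARF25 and ARF36 led at 4 lists under both equal sizes. Without ARF34, ARF39 was absent from 82.3% and 86.9%, and the set without ARF7 and ARF39 held 39.7%. With 1 peak per list, ARF7 was absent from 52.1% at 5 lists. The outer 40% held 41.6% of the sites. Absent lists had a peak within 500 bp in 0.767% and within 5 kb in 8.03%. Summits fitted exactly in 16.2% and within 3 bp in 23.5%. The other lists had a peak within 1 kb in 9.37%. The outer-share difference by ARF39 was 6.48 points (2.54 to 10.3) at equal size and 6.78 points without ARF34, but 5.29 points without chromosome 2 and 6.97 points without its run of thinned lists. Leaving either out left the absences of ARF7 and ARF39, the leading sets and the spacing difference within their intervals. The settings for summit spacing, for the ARF39 and ARF13 differences, for chromosome 2 and for clade A peaks within 1 kb were chosen after seeing the data. Motif and gene-distance settings were not run. The cause of these changes was not tested, beyond the fewer peaks that the stricter settings keep by construction. For the absences of the other 5 lists, 29 of 80 values moved beyond their intervals. All 10 values moved under each of the equal-size settings, and 7 of 10 without peaks under a −log10 q of 10. Leaving out ARF34 or chromosome 2 moved 1 each. Merging by at least 100 bp, 1 peak per list and leaving out the run of thinned lists moved none.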
